A study of Mus musculus with 308 samples.

Results

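Glucuronidation is the attachment of glucuronic acid to a drug, steroid or bile pigment, which makes the molecule soluble and ready for export into bile or urine. The genes described here are a list of 8 in the mouse. The transferases Ugt2b5, Ugt2b34, Ugt2b35, Ugt2b36 and Ugt2b38 carry out this reaction, and the enzymes Ugdh and Ugp2 make its sugar donor. Their relative Ugt8a, which uses another sugar, does neither but is on the list and is counted among the members below. The 8 genes were looked for through the probe sets whose only gene symbol is one of these names. That rule gave 8 of 45141 probe sets, which measure 6 of the 17097 genes on the array with such a probe set. Ugt2b36 and Ugt2b38 had none and were not measured here. The study dosed C57BL/6 mice once daily for 10 days and took 7 tissues 12 h after the last dose, giving 308 arrays. The 6 groups were dimethyl fumarate at 100 mg/kg (DMF100), dimethyl fumarate at 179.2 mg/kg (DMF179.2), monoethyl fumarate given as its calcium, magnesium and zinc salts at 79.2 mg/kg (MEF79.2), both agents together at 100 and 79.2 mg/kg (DMF100+MEF79.2, the combination), a group labelled Nav that the sources used here do not explain, and vehicle (VEH), which was 0.8% hydroxypropyl methylcellulose. No group carried a genetic alteration according to the labels, and the labels give neither age nor sex. Between 5 and 8 arrays made up each group, in blood, brain, inguinal lymph node (ILN), jejunum, kidney, mesenteric lymph node (MLN) and spleen. The design text counts mice per dose group but the labels give no key from arrays to mice, so a p-value here measures the spread between arrays.

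The pathway starts with UDP-glucose, which Ugp2 makes from glucose 1-phosphate. Ugdh oxidises UDP-glucose to UDP-glucuronic acid, and transferases of the UGT family, which sit in the endoplasmic reticulum, move the glucuronic acid onto their substrates. Liver, small intestine and kidney are known for high UGT activity, and UGT2B enzymes act on steroids, bile acids and many drugs. Ugt8a belongs to the same family by sequence but uses UDP-galactose, and it makes galactosylceramide, a main lipid of myelin. Fumarate esters are known to activate the transcription factor NRF2, which acts through antioxidant response elements (AREs), and the design asks which genes each ester changes in each tissue.

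In RefSeq, Ugt2b34, Ugt2b35, Ugt2b36, Ugt2b5 and Ugt2b38 lie in this order on chromosome 5 in 1 cluster with Ugt2b1, Ugt2b37, Ugt2a3, Ugt2a1 and Ugt2a2, and close sequence similarity means that a probe set of 1 member may also record RNA of a neighbour. All 5 Ugt2b promoters hold the outer letters of the palindrome bound by HNF1, a transcription factor of liver, gut and kidney epithelium, between 49 and 73 bases before the start. The windows are shown because all 5 share this block, with GTTA, any 4 bases and TTAAC in capitals (RefSeq, build GRCm38.p6):
Ugt2b5, chr5:87140369-87140421, minus strand: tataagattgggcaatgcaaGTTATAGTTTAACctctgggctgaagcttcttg
Ugt2b34, chr5:86906978-86907030, minus strand: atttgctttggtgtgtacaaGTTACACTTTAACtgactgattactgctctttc
Ugt2b35, chr5:87000770-87000822, plus strand: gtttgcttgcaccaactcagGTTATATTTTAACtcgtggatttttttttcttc
Ugt2b36, chr5:87092587-87092639, minus strand: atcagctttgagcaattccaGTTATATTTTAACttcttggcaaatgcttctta
Ugt2b38, chr5:87424235-87424287, minus strand: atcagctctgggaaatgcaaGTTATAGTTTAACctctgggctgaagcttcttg

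This motif occurs in 0.17% of 32851 mouse promoters, counted as 250 bases before each start on both strands. It was chosen after the promoters and the results had been seen, so the share describes the family and tests nothing. The ARE core TGACNNNGC, searched the same way, occurs in 10.2% of promoters. It has no match in this window of the Ugt2b genes, Ugt8a or either Ugp2 promoter, and 2 matches in the Ugdh promoter. They lie 132 to 124 and 94 to 86 bases before the start, and the second, on the opposite strand, overlaps the core GCGTG of the element bound by the AHR receptor, which 28.2% of promoters hold. The 250 bases before the Ugdh start are shown with both matches in capitals, since Ugdh alone among the members holds an ARE core in this window:
Ugdh, chr5:65435843-65436092, minus strand: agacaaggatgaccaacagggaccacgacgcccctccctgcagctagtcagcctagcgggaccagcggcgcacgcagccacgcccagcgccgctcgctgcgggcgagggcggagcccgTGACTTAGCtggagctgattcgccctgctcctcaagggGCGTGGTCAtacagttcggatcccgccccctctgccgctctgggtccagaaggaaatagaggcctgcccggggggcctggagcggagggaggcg

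The values are log2 array signals, scaled separately in each tissue, so that levels are compared within a tissue only. Every array correlated with the median profile of its group at 0.984 or more. Of the marker lists, enterocyte genes averaged 13.21 to 13.50 in jejunum arrays, proximal tubule genes 11.77 to 12.17 in kidney and oligodendrocyte genes 9.80 to 10.67 in brain, so that these tissues carried the markers of their labels. Pancreatic acinar genes averaged above the filter value, defined below, in 8 MLN arrays, 15 spleen arrays and 2 kidney arrays of the Nav group, and members' calls against vehicle in those tissues are also given without them. In kidney leaving them out changed no member's call under the 4 treatments.

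The transferases were restricted to few tissues and the donor enzymes were not. Ugt2b5 sat at the lowest value of the tissue in all arrays of blood, brain, both nodes and spleen, and above it in all 43 jejunum and all 46 kidney arrays. Ugt2b35 lay at the lowest value in every array outside jejunum except 6 kidney arrays. Ugt2b34 was above the tissue's median probe set in all jejunum and kidney arrays and elsewhere left the lowest value in 1 blood, 2 brain and 3 MLN arrays. Ugt8a was above that median in all 46 brain and all 46 kidney arrays, and in no array of the other 5 tissues. Its second probe set stayed at 2.35 or less in brain and at the lowest value in kidney, so Ugt8a values here come from the first. Ugdh and Ugp2 were above the median in every array of all 7 tissues.

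**Figure D1:**
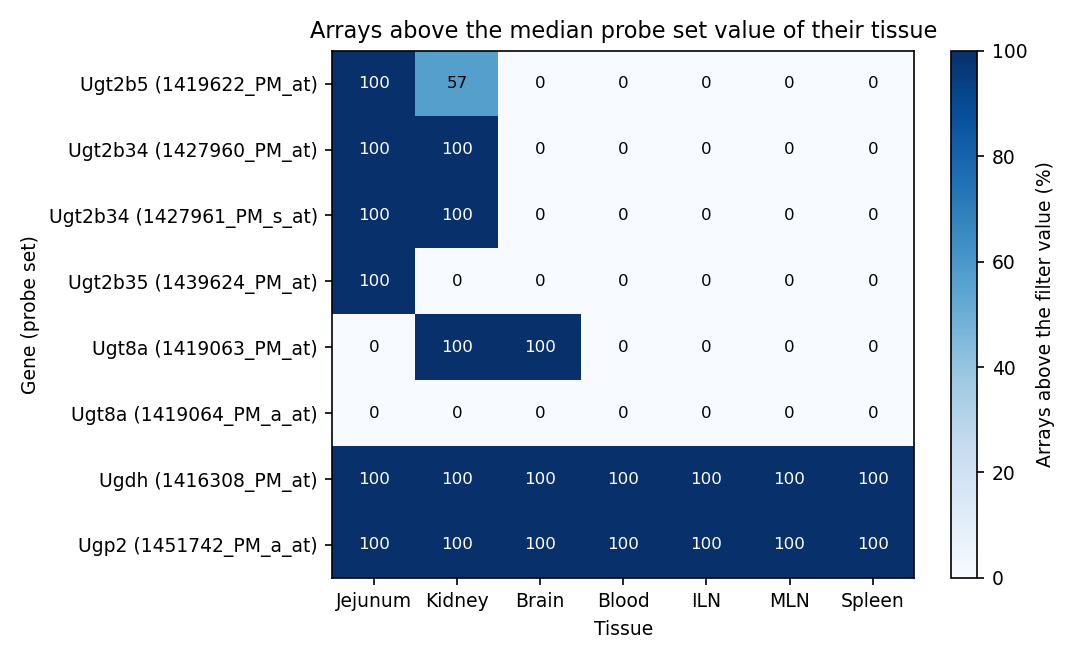
Share of arrays, in percent, in which each member probe set (rows) lies above the median probe set value of its tissue (columns), over all groups. Ugdh and Ugp2 reach 100% everywhere, Ugt2b5, Ugt2b34 and Ugt2b35 are confined to jejunum or kidney in these arrays, and Ugt8a reaches 100% in kidney and brain only.

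Testing required a signal above that median, the filter value, in 5 or more arrays of the tissue. This left 5 members in jejunum, 5 in kidney, 3 in brain and 2 in each other tissue. Each treatment was set against vehicle with limma, and a call means that the p adjusted by Benjamini-Hochberg over the genes tested in that tissue was below 0.05. Of 84 such tests of members, 29 were called, 27 of them in jejunum and kidney. They include 4 of Ugt2b5 in kidney, where every vehicle array lay below the filter value, and the other 80 tests held 25 calls. The members were chosen with earlier results of these data known. Their counts and medians are therefore set beside those of all genes as a description, which tests nothing about the members as a set.

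In jejunum Ugt2b5 and Ugt2b35 changed most. Under DMF179.2 all 5 members tested were higher than in vehicle, under DMF100 and the combination Ugt2b5, Ugt2b35 and Ugdh were, and under MEF79.2 none was called by limma, with 3 of 5 at an unadjusted p under 0.05. Over all 10847 genes tested, the shares called in either direction were 0.996% for DMF100, 27.4% for DMF179.2, 0.111% for MEF79.2 and 3.84% for the combination. The median change of the 5 members was +0.41, +0.58, +0.17 and +0.43 in that order, against a median between -0.02 and +0.02 over all genes.

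Ugt2b5, a UGT2B transferase, had a lowest, median and highest value of 8.78, 9.23 and 10.06 in DMF100 jejunum, 9.77, 10.89 and 11.29 in DMF179.2, 7.61, 8.11 and 8.41 in MEF79.2, and 9.07, 10.11 and 10.60 in the combination, against 5.71, 7.11 and 8.02 in vehicle. Every array of both DMF doses and of the combination lay above the highest vehicle array, and 4 of 7 MEF79.2 arrays did. The differences from vehicle corresponded to 4.95-fold for DMF100 (95% interval 3.31 to 7.40, limma adjusted p = 8.41e-07), 12.7-fold for DMF179.2 (8.66 to 18.7, adjusted p = 5e-13) and 7.32-fold for the combination (5.04 to 10.6, adjusted p = 3.14e-10). For MEF79.2 it was 1.89-fold (1.29 to 2.78), which missed the threshold (adjusted p = 0.178) but passed it when arrays were weighted by quality (0.95 on the log2 scale, adjusted p = 0.0316).

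Ugt2b35, which lies in the same cluster, followed the same order. Its lowest, median and highest values were 9.32, 9.88 and 10.49 in DMF100, 10.17, 11.03 and 11.23 in DMF179.2, 8.48, 9.19 and 9.40 in MEF79.2 and 9.61, 10.42 and 11.10 in the combination, against 7.88, 8.65 and 8.96 in vehicle. The groups of both DMF doses and the combination did not overlap with vehicle. Ugt2b35 was 2.77-fold higher under DMF100 (log2 difference 1.47 ± 0.21 SE, adjusted p = 8.16e-06), 5.24-fold under DMF179.2 (2.39 ± 0.20, adjusted p = 6.9e-12) and 3.63-fold under the combination (1.86 ± 0.19, adjusted p = 3.76e-09). Its MEF79.2 difference of 0.55 ± 0.20 was not called (adjusted p = 0.234).

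Ugt2b34, another UGT2B transferase, stood near the top of the jejunum scale in every group and moved little. Its values were 12.96, 12.99 and 13.10 (lowest, median and highest) in DMF100, 12.97, 13.07 and 13.17 in DMF179.2, 12.82, 12.96 and 13.05 in MEF79.2 and 12.90 to 13.13 in the combination, against 12.74, 12.92 and 13.02 in vehicle. The groups overlapped, and only the DMF179.2 difference passed the test, at 0.18 ± 0.05 (adjusted p = 0.00284). Its second probe set, of a kind that may also match related transcripts, gave 0.25 ± 0.06 in the same comparison (adjusted p = 0.00138, 28.5% of probe sets called), without overlap.

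**Figure D2:**
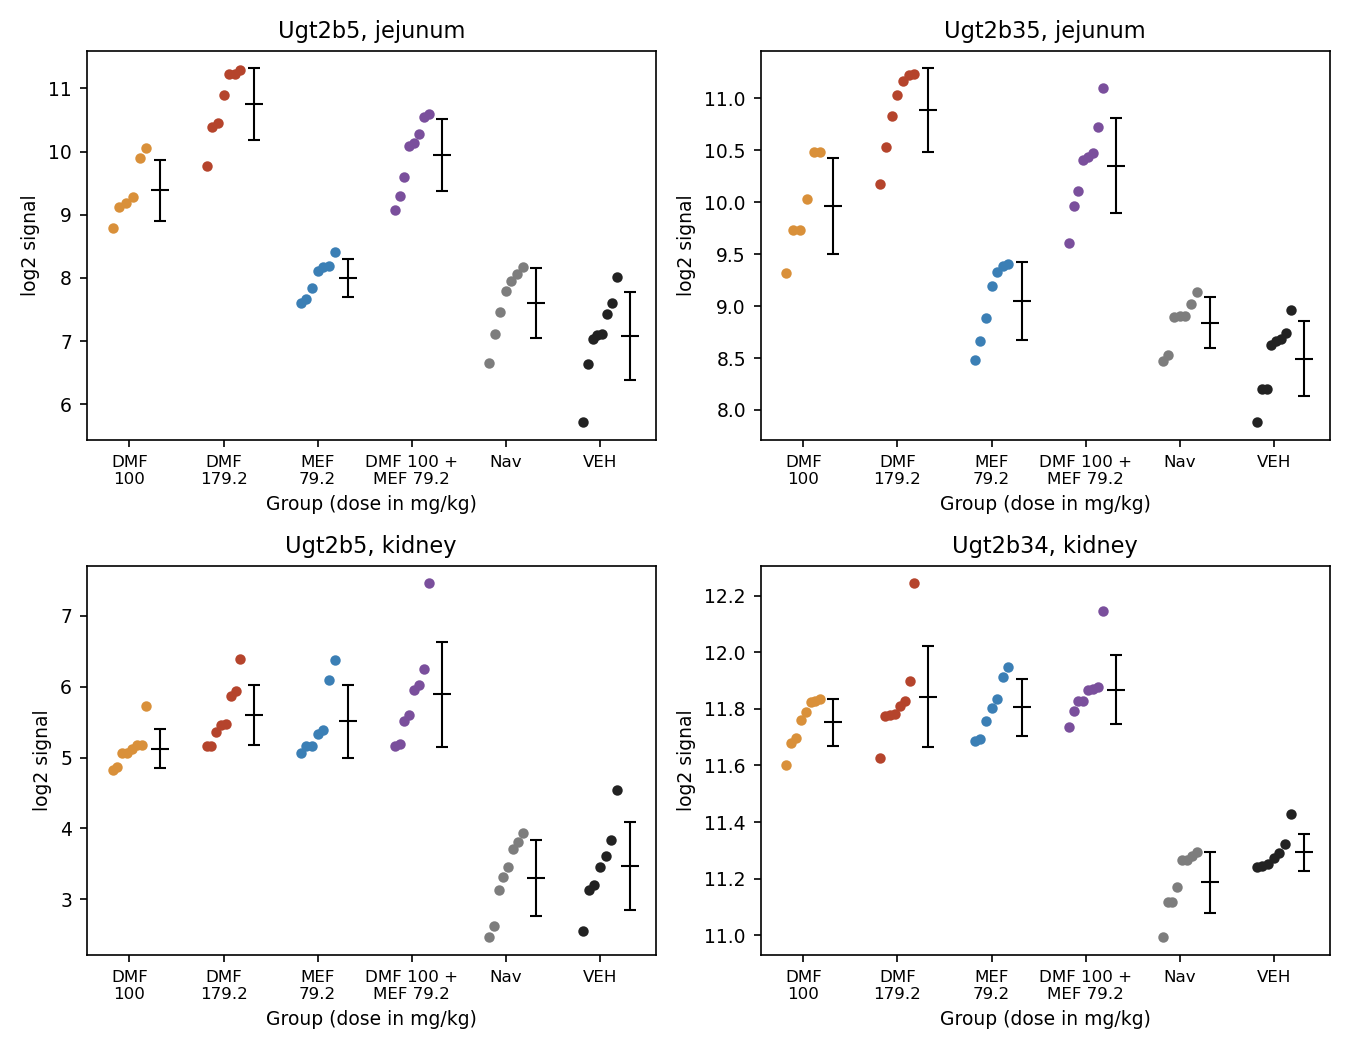
Log2 signal of Ugt2b5 and Ugt2b35 in jejunum (top) and of Ugt2b5 and Ugt2b34 in kidney (bottom), 1 point per array, with the group mean ± SD as a bar beside the points. Jejunum arrays of both DMF doses and of the combination lie above all vehicle arrays while MEF79.2 arrays overlap them, and in kidney the 31 arrays of the 4 treatments all lie above vehicle.

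The donor enzymes changed less than Ugt2b5 and Ugt2b35 in jejunum. Ugdh, which makes UDP-glucuronic acid, had lowest, median and highest values of 12.55, 12.65 and 12.78 in DMF100 jejunum, 12.69, 12.80 and 12.97 in DMF179.2, 12.28, 12.42 and 12.61 in MEF79.2 and 12.43, 12.63 and 12.91 in the combination, against 11.94, 12.28 and 12.43 in vehicle. Each of the DMF-containing groups cleared the highest vehicle array in all of its arrays. Ugdh was higher by 0.41 ± 0.07 (adjusted p = 0.000608) in DMF100, 0.58 ± 0.07 (adjusted p = 9.76e-08) in DMF179.2 and 0.43 ± 0.07 (adjusted p = 6.41e-05) in the combination, and its difference under MEF79.2 was 0.17 ± 0.07 (adjusted p = 0.28). Ugp2, which makes UDP-glucose, passed the test under DMF179.2 alone, at 0.19 ± 0.05 (adjusted p = 0.00222), with values of 10.67 to 10.90 in DMF179.2 and 10.48 to 10.63 in vehicle that did not overlap. Its other differences were 0.06 ± 0.05 for DMF100, -0.07 ± 0.05 for MEF79.2 and 0.06 ± 0.04 for the combination.

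Groups that lay wholly above vehicle were uncommon among all jejunum genes, at 0.627% for DMF100, 3.13% for DMF179.2, 0.157% for MEF79.2 and 0.452% for the combination. Markers of the distal small intestine moved with the treatments: Fabp6, Slc10a2 and Fgf15 together had group medians of 8.70 in DMF100, 4.84 in DMF179.2, 7.56 in MEF79.2 and 6.38 in the combination, against 9.33 in vehicle, and single arrays ran from 3.32 to 10.59 in DMF179.2 and from 6.67 to 10.74 in vehicle. With their mean as a covariate, 10 of the 11 calls held, Ugt2b5 under DMF179.2 was 3.27 log2 units above vehicle, and Ugt2b34 under DMF179.2 fell short (0.12, adjusted p = 0.0566). Enterocyte markers had group medians between 13.38 and 13.44 in all 6 groups. The hybridisation controls averaged 0.11, 0.13, 0.06 and 0.16 log2 units below vehicle in DMF100, DMF179.2, the MEF salts and the combination, and with that signal as a covariate 10 of the 11 jejunum calls held, Ugp2 under DMF179.2 being lost (0.16, adjusted p = 0.0761). In whole tissue, more RNA per cell and more cells of a type cannot be told apart.

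In kidney the MEF salts given alone passed the test as did DMF. Ugt2b34, Ugdh and Ugp2 were each higher than vehicle under all 4 treatments and Ugt8a was not called, which makes 12 of 16 tests of these members. Over all 10706 kidney genes the shares called were 8.09% for DMF100, 16.7% for DMF179.2, 14.2% for MEF79.2 and 30.3% for the combination. The median change of these 4 members was +0.23, +0.29, +0.26 and +0.28 in that order, against +0.00 to +0.02 over all genes. Ugt2b5 passed the filter only through treated arrays, 26 of which exceeded the filter value of 5.10, so it is left out of this count and its differences from vehicle are a description without a test.

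Ugt2b5 had lowest, median and highest kidney values of 4.83, 5.09 and 5.73 in DMF100, 5.16, 5.46 and 6.39 in DMF179.2, 5.07, 5.33 and 6.37 in MEF79.2 and 5.16, 5.78 and 7.46 in the combination, against 2.55, 3.45 and 4.54 in vehicle. All 31 treated arrays lay above the highest vehicle array. The log2 differences from vehicle were 1.66 ± 0.27 for DMF100, 2.13 ± 0.27 for DMF179.2, 2.04 ± 0.28 for MEF79.2 and 2.42 ± 0.27 for the combination. The lowest value of the tissue was 2.14, and a difference from vehicle arrays this dim depends on that limit, so no fold is given.

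Ugt2b34 also separated fully from vehicle in kidney, with a far smaller change. It reached 11.60, 11.78 and 11.83 (lowest, median and highest) in DMF100, 11.63, 11.80 and 12.24 in DMF179.2, 11.69, 11.80 and 11.95 in MEF79.2 and 11.74, 11.85 and 12.15 in the combination, against 11.24, 11.27 and 11.43 in vehicle. The differences were 0.46 ± 0.06, 0.55 ± 0.06, 0.51 ± 0.06 and 0.58 ± 0.06 in that order of treatments, with adjusted p between 1.09e-09 and 8.75e-07. Groups lying wholly above vehicle made up 1.09%, 2.05%, 2.51% and 3.22% of all kidney genes. The second Ugt2b34 probe set rose by 0.63 ± 0.11, 0.73 ± 0.11, 0.51 ± 0.11 and 0.59 ± 0.11, again without overlap, where 7.31%, 16.1%, 13.4% and 28.8% of probe sets were called.

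Ugt2b35 was at the lowest kidney value of 2.14 in all 7 vehicle, 8 Nav, 8 DMF100 and 7 MEF79.2 arrays. It left that value in 4 of 8 DMF179.2 arrays, at 2.15, 2.26, 2.57 and 4.62, and in 2 of 8 combination arrays, at 2.17 and 2.49. None of these reached the filter value, so Ugt2b35 was not tested in kidney.

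The donor enzymes changed by a similar amount under each treatment in kidney. Ugdh ran from 11.52 to 11.86 in DMF100, 11.62 to 11.77 in DMF179.2, 11.60 to 11.88 in MEF79.2 and 11.51 to 11.97 in the combination, against 11.30 to 11.55 in vehicle, and its differences were 0.28 ± 0.06, 0.30 ± 0.06, 0.30 ± 0.06 and 0.31 ± 0.06, with adjusted p between 0.000189 and 0.00192. At least 7 arrays of each treated group lay above every vehicle array. Ugp2 differed from vehicle by 0.18 ± 0.05 in DMF100 (adjusted p = 0.0327), 0.28 ± 0.05 in DMF179.2 (adjusted p = 0.000195), 0.21 ± 0.06 in MEF79.2 (adjusted p = 0.0105) and 0.25 ± 0.05 in the combination (adjusted p = 0.000552), with values of 10.63 to 11.09 in the treated arrays and 10.50 to 10.75 in vehicle that overlapped. The DMF100 call of Ugp2 was lost without DMF100 replicate 10, 11 or 12 or without vehicle replicate 1, 2, 3, 5 or 6, up to an adjusted p of 0.0765, and with the 2 groups compared alone (0.0502). Its MEF79.2 call was lost with arrays centred on their medians (0.19, adjusted p = 0.0524).

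Ugt8a, the galactosylceramide enzyme, was not called in kidney. Its medians were 7.51, 7.68, 7.60 and 7.62 in DMF100, DMF179.2, the MEF salts and the combination, against 7.77 in vehicle, and the differences were -0.28 ± 0.14, -0.13 ± 0.14, -0.11 ± 0.14 and -0.30 ± 0.14, with adjusted p of 0.219, 0.567, 0.65 and 0.0851. Without combination replicate 35 the last became -0.36 (adjusted p = 0.038). Hepatocyte markers (Alb, Apoa1, Ttr, Cyp2e1, Serpina1c, Fgb), 5 of 6 of which were above the filter value in kidney, averaged 7.73 to 8.03 in DMF100, 7.87 to 8.23 in DMF179.2, 7.62 to 7.93 in MEF79.2 and 7.83 to 8.11 in the combination, against 7.26 to 7.50 in vehicle, and their part in the kidney results was not tested. Proximal tubule markers had group medians of 12.05 to 12.11 in all groups. Hybridisation controls differed from vehicle by between -0.06 and +0.08 in the treated kidney groups.

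**Figure D3:**
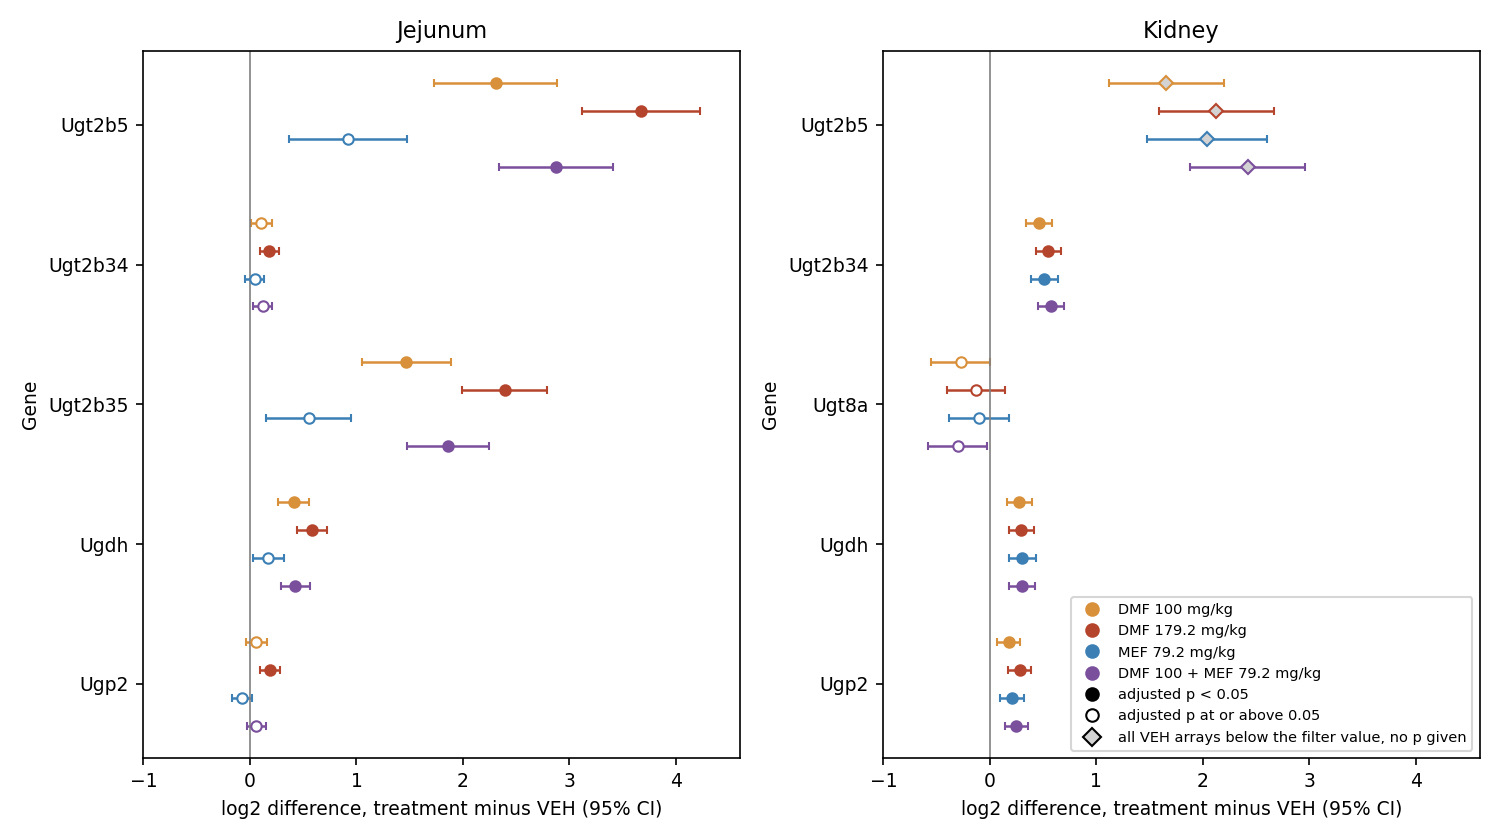
Log2 difference of each treatment from vehicle with its 95% confidence interval, for members tested in jejunum (left) and kidney (right), filled where the limma adjusted p is under 0.05 and as grey diamonds for kidney Ugt2b5, which has no test. In jejunum the MEF79.2 points are open and Ugt2b5 reaches 3.67 under DMF179.2, and in kidney the points of Ugt2b34, Ugdh and Ugp2 are filled for all 4 treatments.

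The dose and compound comparisons were made with the same fits, 5 comparisons in each tissue. In jejunum and kidney 6 of 50 member tests were called, and 17 had an unadjusted p under 0.05. These counts include kidney Ugt2b5, which passed the filter there only through treated arrays, so its kidney values in these comparisons, called or not, are a description. In jejunum DMF179.2 exceeded DMF100 for Ugt2b5, by 1.36 ± 0.30 (adjusted p = 0.00376), and for Ugt2b35, by 0.92 ± 0.21 (adjusted p = 0.00562), in a comparison that called 11.6% of all genes. In kidney the same dose step gave Ugt2b5 0.47 ± 0.26 (adjusted p = 0.4, 95% interval -0.05 to 1.00) and Ugt2b34 0.09 ± 0.06 (adjusted p = 0.492), and 1.36% of genes were called.

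Adding DMF to the MEF salts raised Ugt2b5 by 1.95 ± 0.28 (adjusted p = 2.62e-05) and Ugt2b35 by 1.31 ± 0.20 (adjusted p = 8.54e-05) in jejunum, where 0.728% of genes were called, and gave Ugt2b5 a kidney difference of 0.38 ± 0.27 (adjusted p = 0.592, 0.467% of genes called). The MEF salts added to DMF100 gave Ugt2b5 a kidney difference of 0.77 ± 0.26 (limma adjusted p = 0.0408), where 14.6% of genes were called. The call was lost with arrays centred on their medians (adjusted p = 0.0508) or with the 2 groups compared alone (adjusted p = 0.0774). It is a description, since Ugt2b5 passed the kidney filter only through treated arrays. The lowest combination array, at 5.16, lay above the filter value of 5.10, and the lowest DMF100 array, at 4.83, below it. Combination replicate 35 stood at 7.461, the next of its group at 6.25. In jejunum the same step gave Ugt2b5 a difference of 0.57 ± 0.29 (adjusted p = 0.482, 0.157% of genes called, 95% interval -0.02 to 1.15). DMF179.2 and the combination share a total dose in mg/kg. In jejunum they differed by 0.80 ± 0.28 for Ugt2b5 (adjusted p = 0.325) and 0.53 ± 0.20 for Ugt2b35 (adjusted p = 0.363). The 95% intervals were 0.24 to 1.35 and 0.13 to 0.93, and 0% of all genes were called. The kidney difference was -0.29 ± 0.26 for Ugt2b5 (adjusted p = 0.472, 95% interval -0.82 to 0.23), where 11.4% of genes were called.

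In kidney the log2 change of the combination was also set against the added changes of DMF100 and MEF79.2. For Ugt2b34 the departure from that sum was -0.40 ± 0.09 (adjusted p = 0.00908), in a test that called 1.18% of genes. For Ugdh it was -0.28 ± 0.08 (adjusted p = 0.0894). In jejunum the departures of Ugt2b5 and Ugt2b35 were -0.35 ± 0.40 and -0.16 ± 0.28, where 0.295% of genes were called. DMF100 and MEF79.2 differ in dose, so their values stand side by side above without a test.

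The 2 transferase tissues were set against each other by testing the treatment difference in jejunum minus that in kidney. The 4 members that passed the filter in both tissues gave 16 such tests, of which 7 were called, while the shares over 11858 genes were 0.995% for DMF100, 17.5% for DMF179.2, 1.95% for MEF79.2 and 13.2% for the combination. Ugt2b34 responded less in jejunum under each of the 4 treatments, with differences of -0.35 ± 0.08, -0.37 ± 0.08, -0.47 ± 0.08 and -0.46 ± 0.07 for DMF100, DMF179.2, the MEF salts and the combination. Its signal in jejunum was already 12.74 or more in vehicle. Ugt2b5 is counted in the 16 tests and, under DMF179.2, in the 7 calls. Its kidney difference from vehicle has no test above, so its values here are a description. Jejunum minus kidney, they were 1.54 ± 0.39 under DMF179.2 and, with the opposite sign, -1.12 ± 0.40 under MEF79.2. Both rest on the dim kidney vehicle arrays described above.

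Ugt2b35, not above the filter value in any kidney array, and Ugt8a, not above it in any jejunum array, were not compared between the tissues. Ugdh differed under DMF179.2 alone, at +0.28 ± 0.09 (adjusted p = 0.0235), and Ugp2 under MEF79.2 alone, at -0.28 ± 0.07 (adjusted p = 0.0223), which was lost with arrays centred on their medians (-0.26, adjusted p = 0.0933). The Ugp2 difference under the combination, -0.19 ± 0.07, missed the threshold (adjusted p = 0.0513) but passed it with the hybridisation controls as a covariate (-0.27, adjusted p = 0.0274), with the replicate number as a block (-0.19, adjusted p = 0.0328) and over the genes that pass the filter in both tissues (adjusted p = 0.0491).

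**Figure D4:**
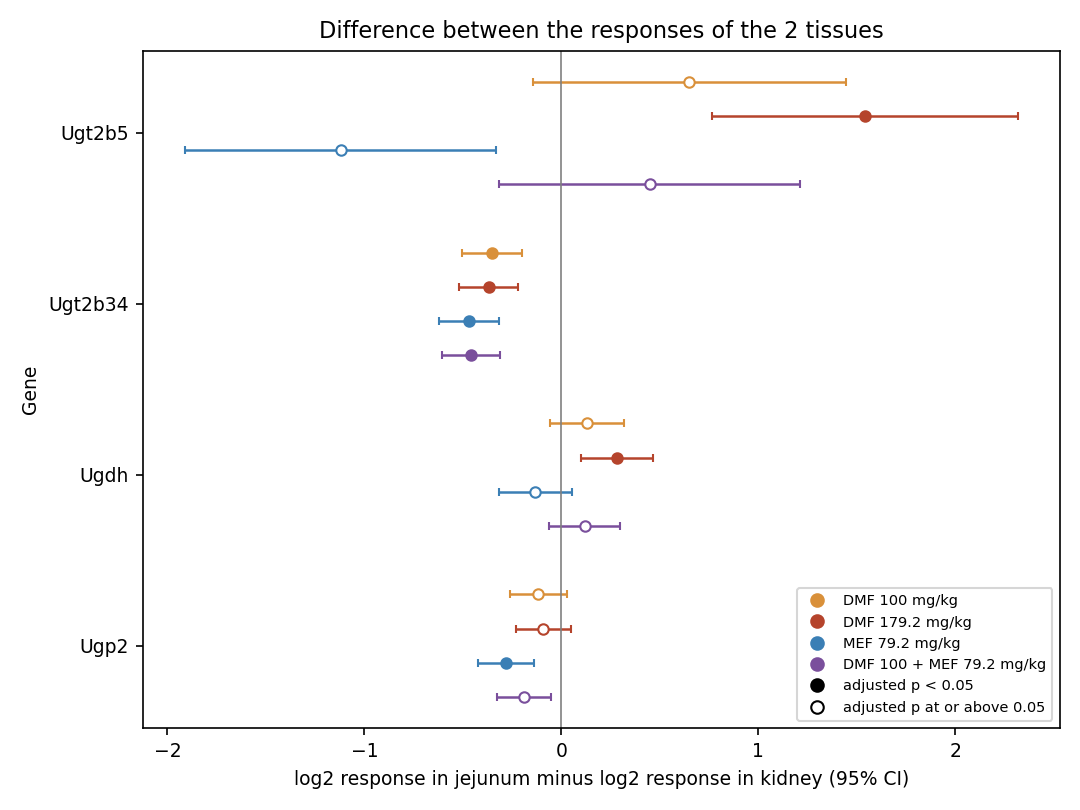
Log2 response in jejunum minus log2 response in kidney with its 95% confidence interval, by member and treatment, filled where the limma adjusted p is under 0.05. Ugt2b34 lies left of 0 for all 4 treatments, and the DMF179.2 points of Ugt2b5 and Ugdh are filled to the right. The Ugt2b5 points are a description, since every kidney vehicle array lay below the filter value.

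Outside jejunum and kidney 2 member tests passed, 1 of 8 in MLN and 1 of 8 in spleen. The shares of all genes called in MLN were 1.85%, 7.88%, 4.75% and 12.7% for the 4 treatments in the order above, and in spleen 0.834%, 24.4%, 0% and 0.0284%. Ugp2 was higher in MLN under DMF179.2, with a lowest, median and highest value of 8.92, 9.30 and 9.89 against 8.64, 8.85 and 9.35 in vehicle, a difference of 0.46 ± 0.11 (adjusted p = 0.0102). Both groups overlapped, DMF179.2 replicate 23 and vehicle replicate 3 carried pancreatic acinar markers at 12.88 and 11.79, and without the 8 such MLN arrays the difference was 0.38 (adjusted p = 0.0289). With the 2 groups compared alone the adjusted p was 0.0522. The same replicates were the highest of their groups for Ugt2b34, at 3.46 in DMF179.2 and 2.38 in vehicle, with all other arrays of both groups at the lowest value of 2.14. Ugp2 in MLN was 0.28 ± 0.12 above vehicle under the combination (adjusted p = 0.103) and 0.23 ± 0.12 without those arrays (adjusted p = 0.22).

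Ugdh was lower in spleen under DMF179.2, at 10.17 to 10.44 against 10.35 to 10.53 in vehicle, a difference of -0.14 ± 0.05 (adjusted p = 0.0319). It was also lower than in the combination (-0.18 ± 0.05 on the log2 scale, adjusted p = 0.0282), where 5.64% of genes were called, a call lost with arrays centred on their medians (adjusted p = 0.0533). Erythroid markers had a median of 9.87 in DMF179.2 spleens against 8.45 in vehicle. The difference from vehicle was -0.09 with those markers as a covariate (adjusted p = 0.249) and -0.13 without the 15 spleen arrays that carried acinar markers (adjusted p = 0.143), so the call was lost in both fits, and also with arrays centred on their medians (-0.10, adjusted p = 0.14).

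In brain, Ugt8a had a lowest, median and highest value of 10.16, 10.44 and 10.54 under MEF79.2, against 10.53, 10.71 and 10.92 in vehicle, a difference of -0.31 ± 0.10 that missed the threshold (adjusted p = 0.0994). Oligodendrocyte markers, the genes of the cells that make myelin, had medians of 10.22 in MEF79.2 and 10.38 in vehicle, and their part was not tested. No member was called in brain, blood or ILN by limma, where 1 of 12, 1 of 8 and 3 of 8 tests had an unadjusted p under 0.05. The shares of all genes called in brain were 0.4%, 1.09%, 0.362% and 0.297% for DMF100, DMF179.2, the MEF salts and the combination, in blood 0.26%, 1.34%, 0% and 0%, and in ILN 1.69%, 0.379%, 0.00947% and 0.0474%. The blood value was Ugp2 under the combination, at -0.54 ± 0.14 (adjusted p = 0.288), and the ILN values were Ugp2 at 0.16 ± 0.06, 0.22 ± 0.06 and 0.13 ± 0.06 under DMF100, DMF179.2 and the combination (adjusted p of 0.136, 0.094 and 0.435).

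**Figure D5:**
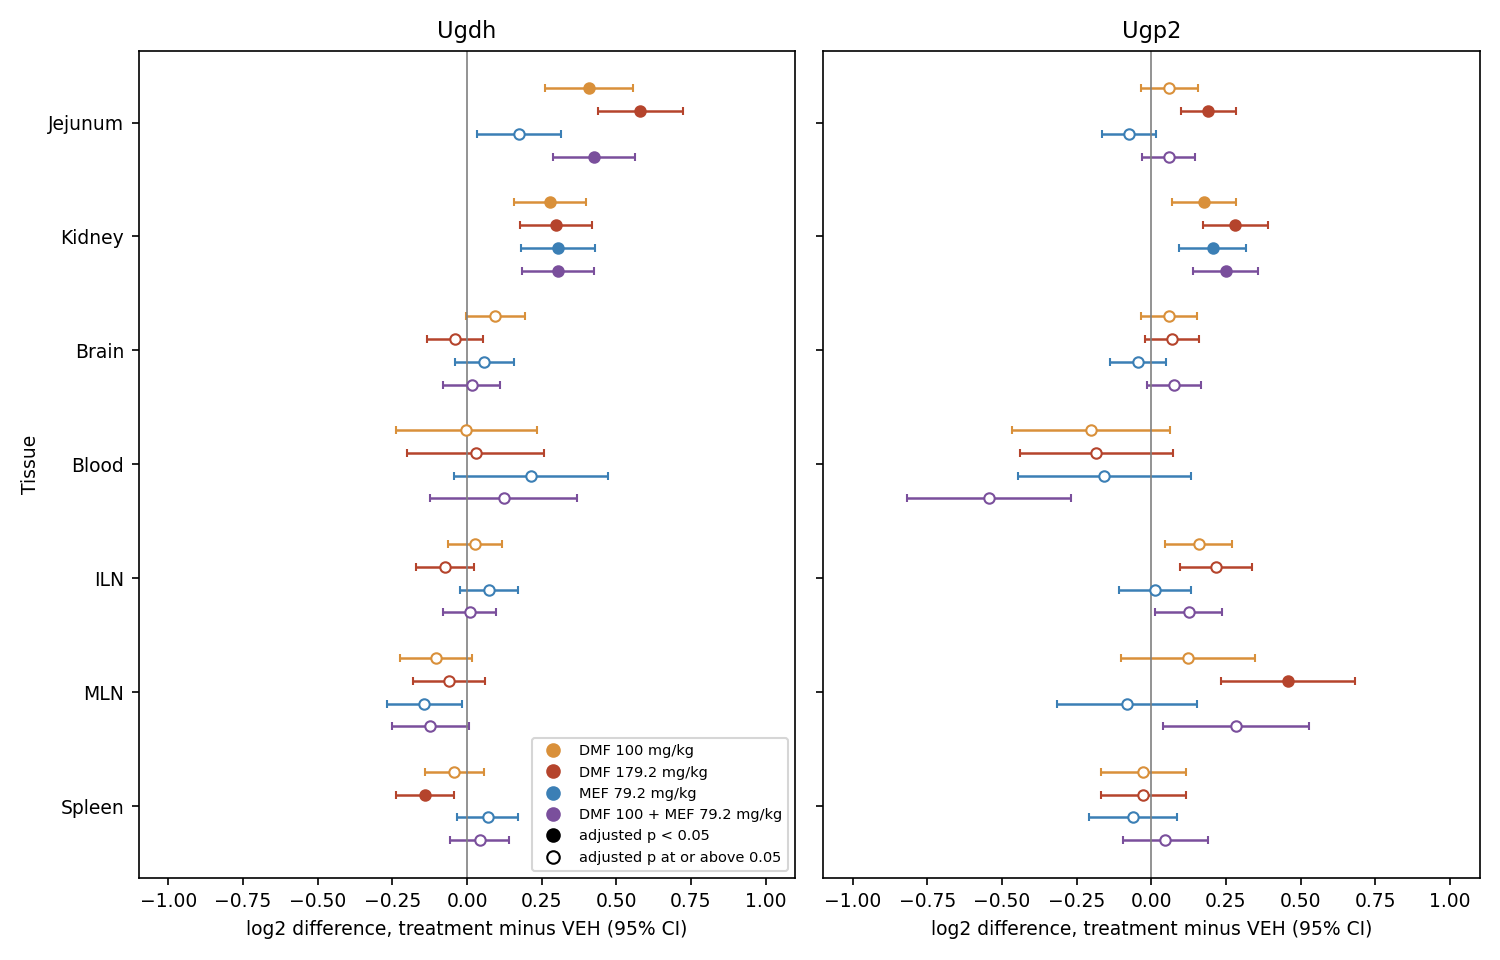
Log2 difference of each treatment from vehicle with its 95% confidence interval for Ugdh (left) and Ugp2 (right) in all 7 tissues, filled where the limma adjusted p is under 0.05. Filled points lie to the right of 0 in jejunum and kidney and for Ugp2 in MLN, and the DMF179.2 point of Ugdh in spleen lies to the left.

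The Nav group differed from vehicle in few members. In kidney Ugp2 was lower in Nav, at -0.14 ± 0.05 (adjusted p = 0.0239), where 49.8% of genes were called, a call lost without the 2 Nav arrays that carried acinar markers (-0.12, adjusted p = 0.0803). The second Ugt2b34 probe set was lower, at -0.39 ± 0.11 (adjusted p = 0.00374, 47.9% of probe sets called) and at -0.37 without those arrays (adjusted p = 0.0118), while the first gave -0.11 ± 0.06 (adjusted p = 0.143). In MLN Ugdh was lower in Nav, at -0.31 ± 0.06 (adjusted p = 6.55e-05), where 50.6% of genes were called, and at -0.32 ± 0.08 without the 8 acinar arrays, which leaves 4 Nav arrays (adjusted p = 0.00212). Ugt2b5 in jejunum was 0.52 ± 0.28 above vehicle in Nav (adjusted p = 0.224, 7.87% of genes called).

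The genes whose values followed a member most closely over all arrays of a tissue are known in jejunum mostly as enzymes of detoxification. These correlations include the differences between treatments, share the same arrays and are given as a description. In jejunum (43 arrays) Ugt2b5 was most like Ugt2b35, at r = 0.972, then the aldo-keto reductases Akr1c12 and Akr1c13 and the glutathione transferases Mgst2 and Gstm1. Ugt2b35 was most like Ugt2b5, Gstm2, Cbr1, Gstm1 and Cbr3, and Ugdh was most like the retinal dehydrogenase Aldh1a1, at 0.931, then Gstm1, Gstm3, Gstm4 and Gsta2. In kidney (46 arrays) Ugt2b5 was most like Ugt2b34, at 0.942, then the export pump Abcc2, the quinone reductase Nqo1, Cbr3 and Pir. Kidney Ugdh was most like Nqo1, at 0.899, followed by Dnajc12, Pgd, Serpina1a and Gsta4. Brain Ugt8a (46 arrays) was most like Ermn, an oligodendrocyte protein, at 0.872, then Prr5l, Enpp4, Trim59 and Cryab.

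Other genes of the pathway came from a list of 41, of which 32 had a single-symbol probe set. The list too was chosen with earlier results of these data known, so its counts are a description. In jejunum 26 were tested, and 2 were higher under DMF100, 15 higher and 2 lower under DMF179.2, none under MEF79.2 and 7 higher and 2 lower under the combination. The shares of all jejunum genes called were 0.996%, 27.4%, 0.111% and 3.84% in that order. The median of the list change was +0.06, +0.24, +0.07 and +0.10 in that order. Under DMF179.2 Abcc3, which exports glucuronides across the basolateral membrane, rose by 1.41 ± 0.12 (adjusted p = 3.86e-11), Slc35d1, which carries UDP-glucuronic acid into the endoplasmic reticulum, by 0.83 ± 0.08 (adjusted p = 3.7e-10), and Pgm1, which makes glucose 1-phosphate, by 1.02 ± 0.12 (adjusted p = 1.22e-07). The apical pump Abcc2 rose by 0.85 ± 0.13 and the receptor Nr1i3 (CAR) by 1.32 ± 0.22, while the apical transporter Abcg2 fell by 0.36 ± 0.06. Abcc3 and Slc35d1 were the 2 called under DMF100, at 0.96 ± 0.13 and 0.47 ± 0.08. Under the combination Abcc3 rose by 1.16 ± 0.12, Slc35d1 by 0.57 ± 0.08, Pgm1 by 0.67 ± 0.12 and Abcc2 by 0.62 ± 0.12.

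In kidney 25 of the list were tested, and the counts higher and lower were 2 and 0 for DMF100, 6 and 1 for DMF179.2, 3 and 1 for MEF79.2 and 4 and 1 for the combination. Over all kidney genes 8.09%, 16.7%, 14.2% and 30.3% were called, so the list's share was near or below that of all genes under DMF100, MEF79.2 and the combination. Abcc2 and Abcc4, both export pumps, were higher under all 4 treatments, Abcc2 by 0.42 to 0.51 and Abcc4 by 0.47 to 0.71. Abcc3 fell by 0.84 ± 0.20 under DMF179.2 (adjusted p = 0.00214), and Nfe2l2, the gene of NRF2, fell by 0.22 ± 0.07 under MEF79.2 and 0.23 ± 0.07 under the combination.

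Transferases of the Ugt1a locus were among the pathway genes called in MLN, spleen and brain, where Ugt2b5 sat at the lowest value. Calls among the listed transferases were not confined to such tissues. Under DMF179.2, 3 of 3 tested in jejunum and 1 of 4 in kidney were higher, as were 2 of 3 in jejunum under the combination. In blood and ILN, where Ugt2b5 also sat at the lowest value, 2 were tested and none was called under the 4 treatments. In MLN 3 of 5 listed genes of hydrolysis and efflux and 1 of 10 of UDP-sugar supply were also higher under DMF179.2 and under the combination. In DMF179.2 spleens 2 of 5 genes of hydrolysis and efflux were higher, and of 10 supply genes 2 were higher and 2 lower. Ugt1a9 rose in MLN by 1.14 ± 0.23 under DMF179.2 (adjusted p = 0.00242) and 1.01 ± 0.25 under the combination (adjusted p = 0.00916), and in DMF179.2 spleens by 1.01 ± 0.21 (adjusted p = 0.00134). Ugt1a6a rose in MLN by 0.82 ± 0.19 and 0.68 ± 0.20 in the same treatments, and in spleen by 0.62 ± 0.17 under DMF179.2. In brain Ugt1a6a rose by 0.51 ± 0.10 under DMF179.2 (adjusted p = 0.00736), where 1.09% of genes were called. The Ugt1a genes share their last exons, so their probe sets may not tell them apart. Of 19 list genes tested in MLN, 6 were higher in DMF179.2 and 6 in the combination. The shares of all MLN genes called were 7.88% and 12.7%. Without the acinar arrays 4 and 2 list genes were higher, and the shares were 3.44% and 4.95%. Of 19 in spleen, 6 were higher and 2 lower in DMF179.2, where 24.4% of all genes were called. Without the acinar arrays 7 were higher and 2 lower, where 27.9% of all genes were called. Without them Ugt1a9 in MLN differed by 0.99 ± 0.20 in DMF179.2 (adjusted p = 0.00614) and 0.91 ± 0.24 in the combination (adjusted p = 0.0284), and Ugt1a6a by 0.69 ± 0.17 (adjusted p = 0.0169) and 0.62 ± 0.20, the last call being lost (adjusted p = 0.0582). In DMF179.2 spleens without them Ugt1a9 was higher by 1.02 ± 0.15 (adjusted p = 0.000206) and Ugt1a6a by 0.55 ± 0.12 (adjusted p = 0.00342).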

How the data were processed

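RNA of 7 mouse tissues was measured on 308 Affymetrix arrays. The deposited table holds log2 values of 45141 probe sets made by the authors; per the submitters' processing notes RMA, GCRMA, R 2.11.1 and limma 3.4.5 were used, with no roles stated, and the genome build was not given in sources used here. Each tissue has its own lowest value, so tissues were treated as normalized apart. Signal over background is the limit of precision, with 18.5 to 23.3% of values at the lowest in each tissue.

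Groups came from the sample titles. Of 29449 annotated probe sets, 28898 have a single symbol, 551 several, and 15692 of all probe sets are unnamed. A gene was its single-symbol probe set with the highest mean. Testing needed 5 or more arrays over the 50th percentile of the tissue. With R 4.3.3, limma 3.58.1 fitted 1 mean per group, without a block, with Benjamini-Hochberg adjustment over the genes of a tissue. The jejunum minus kidney test ran over genes passing in either tissue and is given for members passing in both. Values after ± are standard errors, and intervals are 95% confidence intervals. Named genes are all members, listed pathway genes called (up to 6 per tissue and treatment by adjusted p) and the 5 genes most like a member. Members and lists were chosen with earlier results of these data known. The fit was also checked on simulated data with means and spreads taken from these arrays. Of 1.25-fold changes it recovered 34% in jejunum (DMF179.2), 82% in kidney (MEF79.2) and 42% in blood (DMF179.2). Of 2-fold changes it recovered 96%, 100% and 96% in that order. Sequences are RefSeq promoters (GRCm38.p6), matched by symbol for all 8 members. Replicate numbers are shared between tissues: over 42 numbers shared by jejunum and kidney, the correlation of deviations ran from -0.09 to 0.34 with a median of 0.10, so they were not taken as pairs.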

Additional observations from a re-analysis of the deposited data

Results flagged for a closer look

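In 33 of 159 groups of 4 to 10 arrays, 1 array lay far from the others; chance gives about 1 in 20 groups, and where the rest sit at the lowest value a small step is enough. In kidney, combination replicate 35 was the highest for Ugt2b5 (7.461), Ugt2b34 (12.15) and Ugt2b35 (2.493). Other high kidney arrays were DMF100 replicate 15 for Ugt2b5 (5.729), DMF179.2 replicate 24 for Ugt2b34 (12.24), DMF100 replicate 12 for the second Ugt2b34 probe set (10.7) and DMF179.2 replicate 23 for Ugt2b35 (4.618).

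In MLN, Ugt2b34 was highest in DMF179.2 replicate 23 (3.461, and 2.499 for the second probe set), MEF79.2 replicate 30 (2.16) and vehicle replicate 3 (2.382), which also carried acinar markers at 12.88, 11.63 and 11.79. MLN arrays apart for the donor enzymes were DMF179.2 replicate 18 for Ugdh (10.2) and Nav replicate 40 for Ugp2 (9.434), the second with acinar markers at 9.76.

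Near the lowest value, Ugt2b34 stood out in blood in combination replicate 38 (2.326), DMF179.2 replicate 19 (2.268) and vehicle replicate 8 (2.275), the last 2 for its second probe set, and in brain in Nav replicate 45 (2.085). Ugt8a did so in ILN in DMF100 replicate 13 (2.135) and combination replicate 36 (2.375), and in spleen in DMF100 replicate 13 (2.522), DMF179.2 replicate 22 (2.131) and Nav replicate 40 (3.38). Its second probe set in brain was highest in DMF100 replicate 16 (2.325), DMF179.2 replicate 19 (2.114), MEF79.2 replicate 29 (2.121) and combination replicate 38 (2.35), and lowest in Nav replicate 47 (2.081).

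Among well measured values, blood was lowest for Ugdh in DMF179.2 replicate 20 (7.814) and for Ugp2 in combination replicate 37 (6.253). Ugp2 was highest in brain in DMF100 replicate 11 (10.43), lowest there in MEF79.2 replicate 25 (9.925), and highest in ILN in DMF100 replicate 12 (9.461) and Nav replicate 45 (9.155).

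The response in jejunum minus that in kidney passed the test for Ugt2b34 under DMF100, DMF179.2, the MEF salts and the combination (-0.352, -0.3686, -0.4703 and -0.4576), for Ugdh under DMF179.2 (0.2841) and for Ugp2 under MEF79.2 (-0.2801). Ugt2b5 under DMF179.2 was flagged as well (1.542), as a description, since every kidney vehicle array lay below the filter value.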

How the results depend on the processing

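Of 84 member tests against vehicle, the call and direction held in 84 without a filter, 84 with a trended robust variance, 84 at probe set level and 83 after quantile normalization once more. A filter at the 70th percentile and averaging the probe sets of a gene gave 80 tests each, all held. The tests that dropped out in these 2 settings have no call there. Jejunum and kidney arrays outside the Nav group were each left out in turn, while the Nav arrays of these tissues stayed in every fit. Like the Nav, marker and acinar alternatives, this one was chosen after seeing the data. It kept 11 jejunum calls throughout and gave 15 to 17 in kidney. The kidney counts include Ugt2b5, which is described above without a test. Without Ugt2b5, 12 of 16 kidney tests were called in the analysis as reported. Counts of member calls moved with array weights to 2 in ILN, 2 in MLN and 11 among direct comparisons of treatments in all tissues (0, 1 and 7 in the analysis as reported), to 0 in MLN with the 2 groups compared alone, and in spleen, where 1 was called, to 0 with arrays centred, without acinar arrays or with erythroid markers as a covariate. Differences near 0 turned sign: with arrays centred, Ugdh in DMF100 blood (0.0030) and Ugp2 in DMF100 and DMF179.2 spleen (0.0057 and 0.0097); with array weights, Ugdh in DMF179.2 blood (-0.0067), combination ILN (-0.012) and combination spleen (-0.0019), Ugt8a in combination brain (0.0041) and Ugp2 in DMF100 and DMF179.2 spleen (0.064 and 0.012); with hybridisation controls, Ugt8a in DMF100 brain (-0.0032) and Ugp2 in MEF79.2 ILN (-0.0058); with quantile normalization, Ugdh in combination ILN (-0.00050). Without acinar arrays Ugp2 turned in DMF100 and combination spleen (0.012 and -0.066), and with erythroid markers in DMF179.2 spleen (0.066). Against Nav, Ugp2 in MEF79.2 jejunum became 0.039 and Ugt8a in DMF179.2 and MEF79.2 kidney 0.086 and 0.11. The cause was not tested. With the replicate number as a block, 8 instead of 7 jejunum minus kidney tests were called, both counts including Ugt2b5 under DMF179.2. The block added Ugp2 under the combination (-0.19, adjusted p = 0.0328) and changed no other call. Each tissue holds a number once, so no other comparison could be paired. Values at the lowest value of a tissue have no order, which limits Ugt2b5 outside jejunum and kidney, and Ugt2b35 outside jejunum.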
